A study of Homo sapiens with 6 samples.

Results

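Nuclear oxidative phosphorylation genes were followed in DBTRG, an established human glioblastoma cell line (genotype WT, labelled as brain), after 5 days in a soft gel in 3D or on a rigid dish in 2D. The genes were chosen by symbol, as the subunits of complexes I to V plus the NDUFAF assembly factors of complex I. The symbol pattern used no measured values, but it was chosen with earlier results of these data known. The symbol pattern matched 191 of the 58884 genes in the table, of which 95 were pseudogenes and were left out, leaving 96 protein-coding genes. Of these, 37 belong to complex I, 4 to complex II, 10 to complex III, 18 to complex IV and 19 to complex V, and 8 are complex I assembly factors. The labels give TRIzol extraction of total RNA and a TruSeq library kit, and name no selection of RNA. Each culture condition had 3 libraries, numbered 1 to 3, and the comparison made is soft gel over rigid dish.

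Oxidative phosphorylation takes place at the inner mitochondrial membrane. Complexes I and II pass electrons from NADH and succinate to ubiquinone, complex III passes them to cytochrome c, complex IV passes them to oxygen, and complexes I, III and IV pump protons that drive ATP synthesis by complex V. Most subunits are encoded in the nucleus and imported, while a small set that includes catalytic subunits of complexes I, III and IV is encoded by mitochondrial DNA, so that each of complexes I, III, IV and V draws on both genomes. Complex II is entirely nuclear. Glioblastoma cells are known for high glycolysis, and many also retain respiration.

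Libraries held 20911363 to 25901499 counts. The nuclear oxidative phosphorylation genes took 1.23%, 1.24% and 1.35% of all counts in soft gel 1, 2 and 3, against 1.06%, 1.17% and 1.26% in rigid dish 1, 2 and 3. These ranges overlapped. The cells carried the glioblastoma and glial markers VIM, NES, CD44, FABP7, SOX2 and EGFR, while GFAP averaged 0.843 TPM in soft gel and 0.67 TPM on the rigid dish and OLIG2 was listed at 0 in every library. Of 10 markers of other cell types, 7 stayed too low to be tested. The summed TPM of the 10 was 74.07 to 95.45 in soft gel and 52.98 to 63.08 on the rigid dish, and CD68, which glioblastoma cells can also express, made most of the gap. PTPRC, the defining marker of blood cells, averaged 0.437 CPM in soft gel and 0.236 CPM on the rigid dish. The part of other cells in the results was not tested.

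The nuclear oxidative phosphorylation genes moved little as a group, and a small subset moved in each direction. Of the 96 genes, 88 passed the filter on low counts, and 9 of these rose and 3 fell in soft gel by edgeR's quasi-likelihood test at an adjusted p below 0.05. These are 10.2% and 3.41% of the 88, against 15.4% higher and 13.2% lower among all 16098 genes tested, so both shares lay below the background. In either direction, 12 of the 88 (13.6%) were called, against 28.6% of all tested genes. The 9 that rose were COX7B and COX7C of complex IV, NDUFA5, NDUFA1 and NDUFB3 of complex I, UQCRB and UQCRC2 of complex III, SDHD of complex II and the assembly factor NDUFAF4. The 3 that fell were NDUFS6 of complex I and the assembly factors NDUFAF2 and NDUFAF3. None of the 18 tested complex V genes passed the threshold by edgeR, and DESeq2 called 1 of them lower in soft gel. Without rigid dish 1, edgeR called 2 complex V genes lower.

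The sizes were small. The median log2 fold change was 0.03 over the 88 genes and 0.05 over all tested genes, and that of the 88 was slightly negative with DESeq2 size factors (-0.01), with DESeq2 (-0.02) and without the low-count filter (-0.03). In these fits the median over all genes of the main test shifted too, to 0.0104, -0.0048 and -0.0085. The median of the 88 minus that of all genes was -0.0209 in the main fit and -0.0183, -0.0191 and -0.0184 in these fits. None of the 88 differed by 2-fold or more, against 11.6% of all tested genes, and 4 (4.55%: NDUFA5, COX7B, NDUFAF3 and NDUFAF2) differed by 1.5-fold or more, against 30.5% of all tested genes. Individual libraries of the groups overlapped in CPM (counts scaled to library size by TMM) for 67 of the 88. All soft gel libraries lay above all rigid dish libraries for 16 of the 88 (background 23.5%) and below them for 5 (background 21.1%). The count of fallen genes depended on the fit, and calls among all tested genes (2480 higher and 2123 lower in the main fit) shifted too. Without a low-count filter 5 genes were higher and 10 lower, when all tested genes gave 2743 and 2814. DESeq2 gave 5 higher and 7 lower, and 2302 and 2712 of all tested genes. Without rigid dish 1, 7 were higher and 13 lower, and 3239 and 2925 of all tested genes. Leaving out soft gel 1, soft gel 2, rigid dish 2 or rigid dish 3 left 2 to 4 higher and 0 to 2 lower. In these fits 1006 to 1371 of all tested genes were higher and 797 to 1809 lower. Leaving out soft gel 3 left 5 higher and 7 lower, and 2642 and 2695 of all tested genes.

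**Figure D1:**
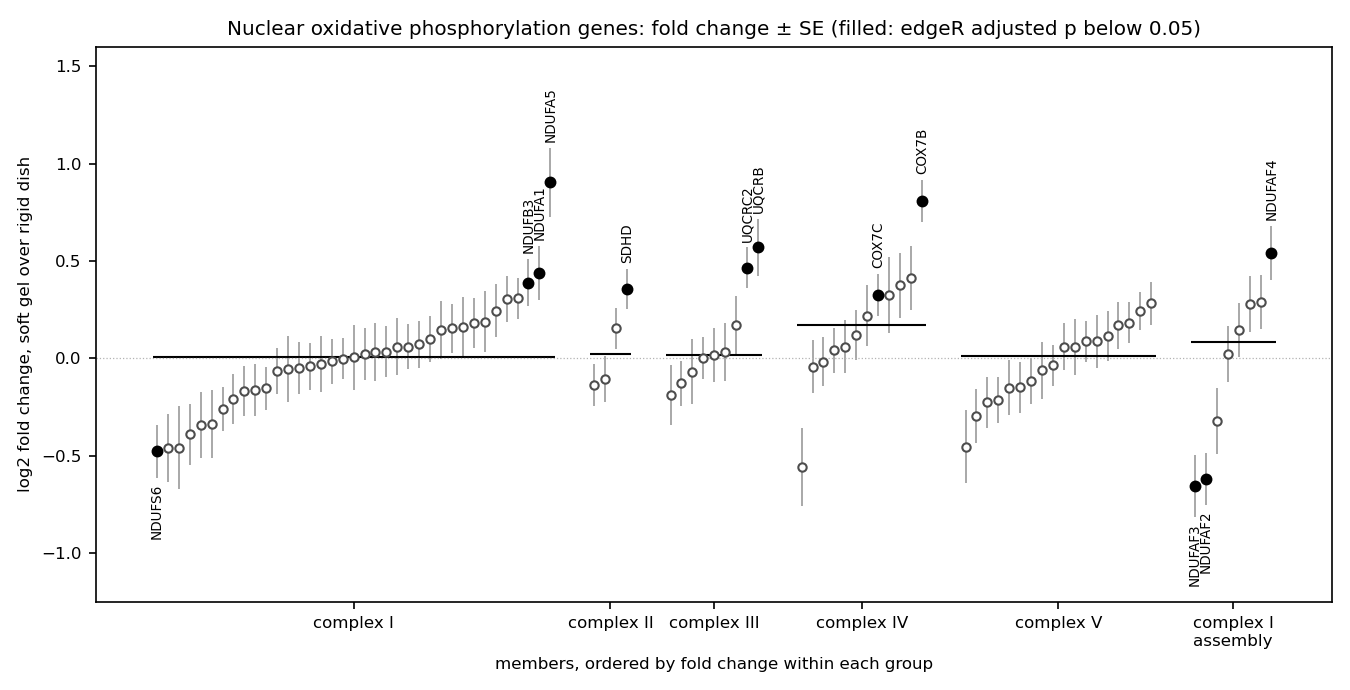
Log2 fold change (y axis, soft gel over rigid dish) of the 88 tested genes, ordered within each complex (x axis). Points are edgeR estimates of the main fit, vertical bars are ± SE and filled points have an adjusted p below 0.05. Horizontal lines are group medians, the highest of which in this fit is 0.17 in complex IV.

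RefSeq promoter windows, from 250 bases before to 50 bases after a gene's start on GRCh38.p14, were available for 75 of the 96 genes, and the RefSeq start lay within 1000 bases of the GENCODE start for 66 of them. Windows of 5 risen genes and 1 fallen gene are printed, chosen from the called genes so that windows with and without a match to the motifs searched can be compared. Motifs were looked for on both strands, and capitals mark a match. The motifs were a 10-base motif of nuclear respiratory factor NRF1, CCGGAAG (the ETS-type motif bound by GABP) and AAGATGGC (YY1). The NRF1 motif is the longer run of capitals in the SDHD window, with any base at position 6. None of the matches below overlaps another.
COX7B: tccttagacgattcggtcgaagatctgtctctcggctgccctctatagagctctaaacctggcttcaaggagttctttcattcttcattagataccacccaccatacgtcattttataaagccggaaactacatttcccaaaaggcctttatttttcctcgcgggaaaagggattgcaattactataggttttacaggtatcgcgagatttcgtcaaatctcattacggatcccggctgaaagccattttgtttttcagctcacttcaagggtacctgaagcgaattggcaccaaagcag
UQCRC2: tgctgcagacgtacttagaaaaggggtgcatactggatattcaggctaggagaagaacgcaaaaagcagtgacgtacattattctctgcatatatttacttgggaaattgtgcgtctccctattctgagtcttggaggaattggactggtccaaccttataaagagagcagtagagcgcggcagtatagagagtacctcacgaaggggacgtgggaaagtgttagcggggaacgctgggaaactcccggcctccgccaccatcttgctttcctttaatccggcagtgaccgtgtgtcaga
SDHD: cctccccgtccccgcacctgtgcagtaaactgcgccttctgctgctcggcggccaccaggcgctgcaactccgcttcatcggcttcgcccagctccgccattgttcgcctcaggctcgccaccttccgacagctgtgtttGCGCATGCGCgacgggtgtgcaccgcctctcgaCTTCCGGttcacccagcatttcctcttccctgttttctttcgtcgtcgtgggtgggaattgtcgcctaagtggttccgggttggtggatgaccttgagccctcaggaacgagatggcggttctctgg
NDUFA1: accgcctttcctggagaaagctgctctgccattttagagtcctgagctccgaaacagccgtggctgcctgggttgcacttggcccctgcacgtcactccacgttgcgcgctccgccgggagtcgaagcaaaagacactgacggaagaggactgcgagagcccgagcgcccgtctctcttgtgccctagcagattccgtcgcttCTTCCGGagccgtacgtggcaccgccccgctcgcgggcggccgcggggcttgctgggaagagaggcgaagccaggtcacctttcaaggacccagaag
NDUFAF4: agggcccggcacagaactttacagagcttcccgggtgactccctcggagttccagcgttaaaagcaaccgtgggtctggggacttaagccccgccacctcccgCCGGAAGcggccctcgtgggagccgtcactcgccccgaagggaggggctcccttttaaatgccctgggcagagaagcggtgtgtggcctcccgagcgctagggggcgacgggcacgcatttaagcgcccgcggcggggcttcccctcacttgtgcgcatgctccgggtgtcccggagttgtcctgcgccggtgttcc
NDUFAF3: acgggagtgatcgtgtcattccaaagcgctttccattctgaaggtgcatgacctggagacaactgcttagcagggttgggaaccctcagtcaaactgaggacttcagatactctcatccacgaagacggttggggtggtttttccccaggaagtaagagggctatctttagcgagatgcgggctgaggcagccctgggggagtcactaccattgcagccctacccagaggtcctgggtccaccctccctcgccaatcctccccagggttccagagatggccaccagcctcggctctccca
These windows lie at chrX:77899218-77899517 (COX7B, plus strand), chr16:21953111-21953410 (UQCRC2, plus), chr11:112086623-112086922 (SDHD, plus), chrX:119871582-119871881 (NDUFA1, plus), chr6:96897842-96898141 (NDUFAF4, minus) and chr3:49020202-49020501 (NDUFAF3, plus).

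As a description of the windows, the SDHD promoter held an NRF1 match at position -110 and a GABP match at -77 from the start, NDUFA1 a GABP match at -47 and NDUFAF4 a GABP match at -147. The COX7B, UQCRC2 and NDUFAF3 windows held none of the 3 motifs, and at 44% G and C the COX7B window lay below the median of 60.7% over the 75 windows. For UQCRC2 and NDUFA1 the RefSeq start lay 701 and 345 bases after the GENCODE start. The windows of UQCRC2 and NDUFA1 thus lie wholly after the GENCODE start and cover no sequence before it. NRF1 matches were found in 17 of the 75 windows (22.7%), against 6.28% of all 27305 promoters of the same length. GABP matches were in 20 (26.7%, against 10.7% of all promoters) and YY1 matches in 11 (14.7%, against 3.03%). Of the 8 risen genes with a window, 1 held NRF1, 3 held GABP and 0 held YY1, and of the 60 tested genes that were not called 15 held NRF1, 17 held GABP and 11 held YY1. The windows of the 3 fallen genes held none of these motifs.

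Complex I takes electrons from NADH through a peripheral arm in the matrix and pumps protons through a membrane arm. Of its 37 nuclear subunits, 3 rose, 1 fell and 33 did not pass the test, with a median log2 fold change of 0.01. Without rigid dish 1, 2 were higher and 6 lower, and without the low-count filter 1 was higher and 6 lower. NDUFA5, an accessory subunit of the peripheral arm (ENSG00000128609, hg38 chromosome 7, 123536997 to 123558255, minus strand), had 94.8, 106 and 67.7 CPM in soft gel, against 52.2, 51.1 and 40.2 CPM on the rigid dish. All 3 soft gel libraries were above the rigid dish libraries, but soft gel 3 stood below the other two and close to rigid dish 1. The log2 fold change was 0.90 (SE 0.179, edgeR adjusted p = 0.00731), the largest among the 88 genes. NDUFA5 was not called when TPM values were tested with limma (adjusted p up to 0.0751), and its TPM groups overlapped.

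NDUFA1, a small membrane-arm subunit encoded on the X chromosome and needed for assembly (ENSG00000125356, chromosome X, 119871487 to 119876662, plus strand), had 71.7, 86.8 and 90.1 CPM in soft gel, against 53.0, 60.8 and 69.6 CPM on the rigid dish. The highest rigid dish library came within a few CPM of the lowest soft gel library. Its log2 fold change was 0.44 (SE 0.14, edgeR adjusted p = 0.0432). NDUFB3, a membrane-arm accessory subunit (ENSG00000119013, chromosome 2, 201071433 to 201085750, plus strand), had 42.8, 47.1 and 46.9 CPM in soft gel, against 37.2, 36.5 and 30.8 CPM on the rigid dish, without overlap. Its log2 fold change was 0.39 (SE 0.121, edgeR adjusted p = 0.0397). Both calls sat near the threshold and were lost with DESeq2 size factors, that of NDUFA1 also without any of the 6 libraries and that of NDUFB3 without any other than rigid dish 1.

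The fallen subunit was NDUFS6, which binds zinc and joins late in assembly of the NADH-oxidizing module (ENSG00000145494, chromosome 5, 1801400 to 1816605, plus strand). It had 84.0, 92.6 and 104 CPM in soft gel, against 114, 126 and 150 CPM on the rigid dish, so that every soft gel library was lower. Its log2 fold change was -0.48 (SE 0.136, edgeR adjusted p = 0.0298), a call lost without soft gel 1, soft gel 2, rigid dish 2 or rigid dish 3. None of the 7 nuclear core subunits, which carry the flavin, iron-sulfur clusters and quinone site, passed the test. NDUFS1, the iron-sulfur protein with the largest core chain, came nearest, at 177 ± 14.6 CPM in soft gel and 143 ± 0.466 CPM on the rigid dish (mean ± SD, n = 3 each; log2 fold change 0.31, SE 0.105, edgeR adjusted p = 0.054). NDUFS8, an iron-sulfur core subunit, lay the other way at 121 ± 14.4 CPM in soft gel and 167 ± 38.2 CPM on the rigid dish (log2 fold change -0.46, SE 0.174, edgeR adjusted p = 0.0738), with overlap between the groups. NDUFV1, which binds NADH and flavin, had a log2 fold change of 0.15 (SE 0.125), not past the threshold.

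Complex II oxidizes succinate and is also an enzyme of the citric acid cycle. Its catalytic flavoprotein SDHA averaged 203 ± 14.2 CPM in soft gel and 223 ± 16.1 CPM on the rigid dish. Its iron-sulfur subunit SDHB averaged 123 ± 9.88 CPM in soft gel, against 133 ± 13.1 CPM on the rigid dish (mean ± SD of 3 libraries each). For both, and for the membrane anchor SDHC, the libraries of the groups overlapped and the test was not passed. The other anchor, SDHD, which with SDHC forms the quinone site (ENSG00000204370, chromosome 11, 112086773 to 112120013, plus strand), rose. It had 61.0, 63.2 and 59.9 CPM in soft gel, against 48.6, 48.9 and 46.3 CPM on the rigid dish, a tight spread in each group with no overlap. The log2 fold change was 0.36 (SE 0.102, edgeR adjusted p = 0.03). The call was lost with DESeq2, without the low-count filter, with TPM values and without any library other than rigid dish 1.

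Complex III passes electrons from ubiquinol to cytochrome c. Among its 9 tested genes, 2 rose and 0 fell by edgeR, as also by DESeq2. Without rigid dish 1 there were 2 higher and 1 lower, and without soft gel 2 there were 0 higher and 0 lower. UQCRC2, core protein 2 on the matrix side (ENSG00000140740, chromosome 16, 21952660 to 21983660, plus strand), had 219, 236 and 229 CPM in soft gel, against 154, 177 and 164 CPM on the rigid dish. The groups stood well apart, and the log2 fold change was 0.47 (SE 0.104, edgeR adjusted p = 0.0121). UQCRB, the ubiquinone-binding subunit (ENSG00000156467, chromosome 8, 96225920 to 96235634, minus strand), had 127, 146 and 105 CPM in soft gel, against 74.2, 89.3 and 91.1 CPM on the rigid dish. It too showed no overlap, with soft gel 3 the lowest soft gel library, and its log2 fold change was 0.57 (SE 0.145, edgeR adjusted p = 0.0197). The call of UQCRC2 was lost without soft gel 2 or rigid dish 3, and that of UQCRB without soft gel 1, soft gel 2 or rigid dish 2.

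UQCRC1, the core protein that pairs with UQCRC2, averaged 418 ± 19.5 CPM in soft gel and 476 ± 101 CPM on the rigid dish (mean ± SD, n = 3 each), with a log2 fold change of -0.19 (SE 0.152) that did not pass the test. The electron-carrying subunits CYC1 (cytochrome c1) and UQCRFS1 (the Rieske iron-sulfur protein) had log2 fold changes of 0.03 (SE 0.148) and 0.02 (SE 0.138). UQCRH, the hinge protein that binds cytochrome c1, averaged 156 ± 10.6 CPM in soft gel and 156 ± 10.2 CPM on the rigid dish. UQCRHL, a near-identical copy of UQCRH, had at most 3.02 counts in any library, and how the authors split reads between them is not known.

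Complex IV reduces oxygen to water, and its nuclear subunits surround a catalytic core made in the mitochondrion. With a median log2 fold change of 0.17 over 12 tested genes, it was the complex with the highest median in this fit, although 2 genes passed the test, both higher. Without rigid dish 1 or without soft gel 3 there was 1 gene higher and 1 lower. Leaving out single libraries put the complex IV median at 0.02 (without soft gel 3) to 0.22 (without soft gel 1). It was 0.05 without rigid dish 1. The assembly factors had a higher median than complex IV without soft gel 3 (0.05) and without rigid dish 1 (0.10). COX7B, a small membrane subunit needed for assembly (ENSG00000131174, chromosome X, 77899438 to 77907373, plus strand), had 182, 210 and 194 CPM in soft gel, against 104, 114 and 117 CPM on the rigid dish. Every soft gel library exceeded every rigid dish library by a wide margin. The group means were 195 ± 13.7 CPM in soft gel and 112 ± 7 CPM on the rigid dish (mean ± SD, n = 3 each), and the log2 fold change was 0.81 (SE 0.108, edgeR adjusted p = 0.00162). COX7B was called in all 19 alternative fits (adjusted p 5.05e-07 to 0.0142), which no other of the 88 genes was.

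COX7C, another small membrane subunit (ENSG00000127184, chromosome 5, 86617904 to 86620962, plus strand), had 310, 327 and 370 CPM in soft gel, against 258, 272 and 273 CPM on the rigid dish. The groups did not overlap, and the log2 fold change was 0.33 (SE 0.108, edgeR adjusted p = 0.0491), a call just inside the threshold that was lost whenever any library was left out. NDUFA4, named for complex I but counted here with complex IV, averaged 268 ± 33.9 CPM in soft gel and 201 ± 41.7 CPM on the rigid dish (mean ± SD, n = 3 each; log2 fold change 0.41, SE 0.166, edgeR adjusted p = 0.0882). COX6A1, the general isoform of subunit VIa, averaged 376 ± 44.5 CPM in soft gel and 290 ± 63.6 CPM on the rigid dish (log2 fold change 0.37, SE 0.166, edgeR adjusted p = 0.115). COX7A2L, which joins complexes III and IV into supercomplexes, lay in the opposite direction. It had 77.8, 84.0 and 101 CPM in soft gel, against 90.6, 134 and 162 CPM on the rigid dish (log2 fold change -0.56, SE 0.201, edgeR adjusted p = 0.0638), with rigid dish 1 below soft gel 3. The related subunit COX7A2 had a log2 fold change of 0.22 (SE 0.157) and the main subunit IV gene COX4I1 one of -0.02 (SE 0.126).

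**Figure D2:**
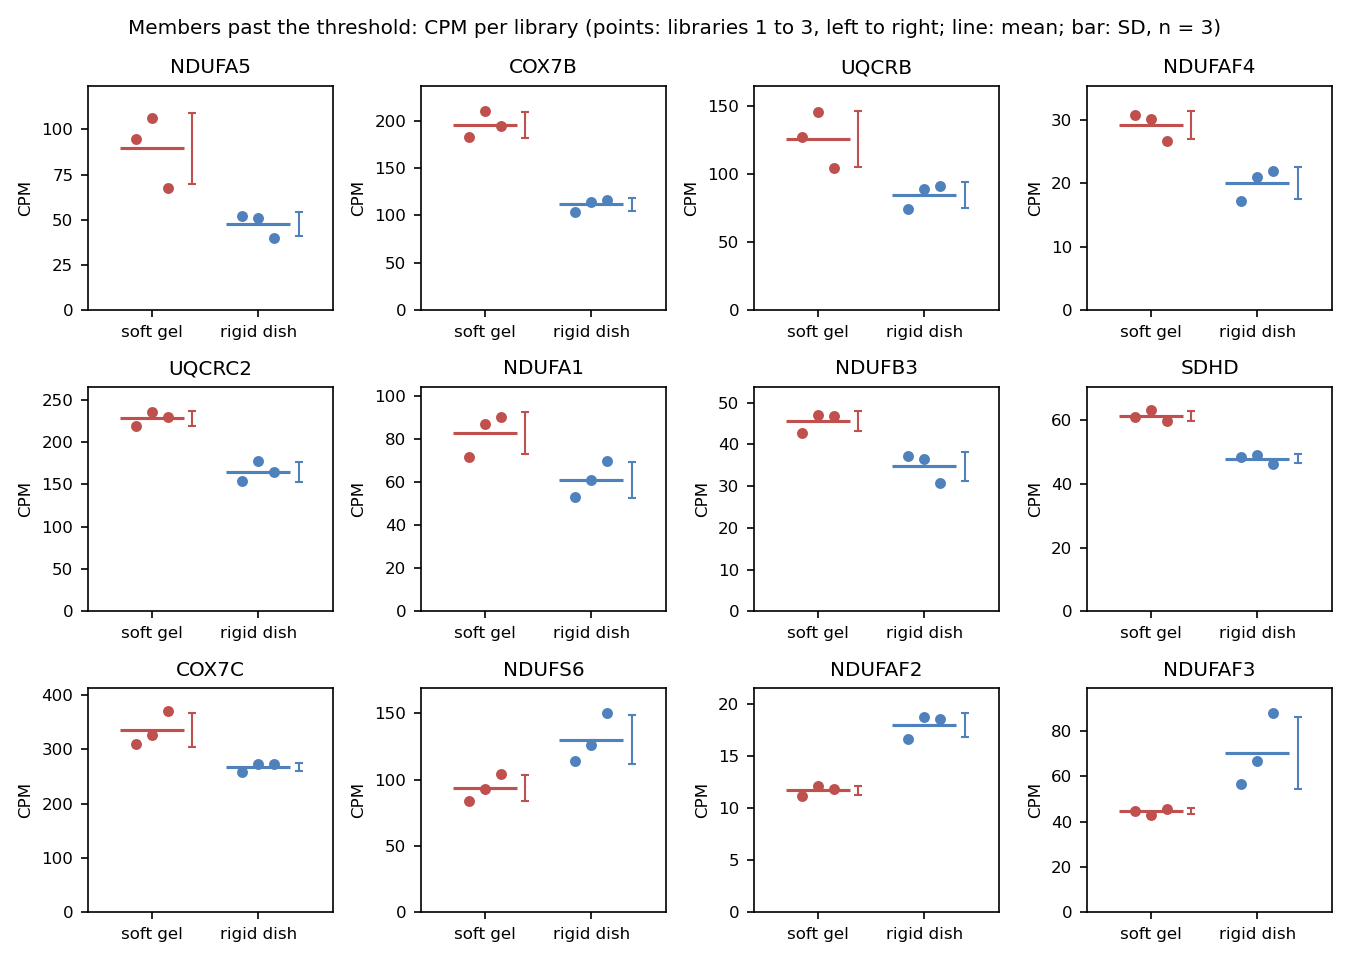
CPM (y axis, from 0) in each soft gel and rigid dish library for the 12 genes with an edgeR adjusted p below 0.05. Points are libraries 1 to 3 from left to right, horizontal lines are means and bars are SD (n = 3), and in every panel the points of the groups do not overlap.

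Complex V makes ATP from the proton gradient. Its 18 tested genes lay between log2 fold changes of -0.45 and 0.28, with a median of 0.01. The catalytic-head subunits ATP5F1A and ATP5F1B, which bind the nucleotides, had log2 fold changes of 0.24 (SE 0.0983, edgeR adjusted p = 0.0896) and 0.06 (SE 0.145, edgeR adjusted p = 0.777). ATP5F1D and ATP5F1E, small subunits of the central stalk, lay on opposite sides. ATP5F1D averaged 126 ± 18.7 CPM in soft gel and 173 ± 43.6 CPM on the rigid dish (log2 fold change -0.45, SE 0.188, edgeR adjusted p = 0.0958), whereas ATP5F1E averaged 236 ± 21 CPM in soft gel and 194 ± 11.8 CPM on the rigid dish (log2 fold change 0.28, SE 0.111, edgeR adjusted p = 0.081; SD, n = 3 each). Neither passed the threshold. The 3 genes ATP5MC1, ATP5MC2 and ATP5MC3 encode the same mature c subunit of the rotating ring, and their log2 fold changes were 0.06 (SE 0.122), -0.29 (SE 0.139) and 0.09 (SE 0.105). ATP5IF1, which inhibits ATP hydrolysis by the enzyme, averaged 62.8 ± 3.95 CPM in soft gel and 73.5 ± 10.3 CPM on the rigid dish (log2 fold change -0.23, SE 0.129, edgeR adjusted p = 0.21). The 4 peripheral-stalk genes had a median log2 fold change of 0.10 and the 5 tested supernumerary membrane genes one of -0.15, none past the test.

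Of the 8 complex I assembly factors, 1 rose and 2 fell (37.5% called, against 28.6% of all tested genes), and without soft gel 1 none was called by edgeR. NDUFAF3 and NDUFAF4 encode partner proteins that act together on the quinone-binding module, and they moved apart. NDUFAF4 (ENSG00000123545, chromosome 6, 96889313 to 96897881, minus strand) had 30.8, 30.0 and 26.6 CPM in soft gel, against 17.3, 21.0 and 21.9 CPM on the rigid dish (log2 fold change 0.54, SE 0.14, edgeR adjusted p = 0.0206). NDUFAF3 (ENSG00000178057, chromosome 3, 49020459 to 49023495, plus strand) had 44.9, 43.1 and 45.8 CPM in soft gel, against 56.5, 66.9 and 87.8 CPM on the rigid dish (log2 fold change -0.66, SE 0.159, edgeR adjusted p = 0.0164). Neither gene had overlapping groups, and for NDUFAF3 the soft gel libraries were nearly equal while the rigid dish libraries spread widely. The NDUFAF4 call was lost with TPM values and without soft gel 1, soft gel 2 or rigid dish 2, and the NDUFAF3 call without soft gel 1 or soft gel 2.

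NDUFAF2, a paralogue of NDUFA12 that is exchanged for it late in assembly (ENSG00000164182, chromosome 5, 60945129 to 61153037, plus strand), had 11.2, 12.1 and 11.8 CPM in soft gel, against 16.6, 18.7 and 18.6 CPM on the rigid dish. Both groups were tight, and the log2 fold change was -0.62 (SE 0.135, edgeR adjusted p = 0.0109), a call lost without soft gel 1 or rigid dish 2. NDUFA12 itself averaged 43.5 ± 1.13 CPM in soft gel and 43.5 ± 1.69 CPM on the rigid dish (mean ± SD, n = 3 each). Among the remaining factors, NDUFAF1 and NDUFAF5, an arginine hydroxylase, had log2 fold changes of 0.28 (SE 0.143, edgeR adjusted p = 0.167) and 0.29 (SE 0.139, edgeR adjusted p = 0.142) with no overlap in CPM. NDUFAF8, the partner of NDUFAF5, had one of -0.32 (SE 0.169, edgeR adjusted p = 0.177), with overlap. NDUFAF6 and NDUFAF7, an arginine methyltransferase, had 0.02 (SE 0.143) and 0.15 (SE 0.141).

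The authors' deposited table gave 5 of these genes higher and 7 lower in soft gel at an adjusted p below 0.05, of which 8 were also called here in the same direction. In the authors' deposited table, COX7A2L (log2 fold change -0.58), NDUFS8 (-0.49), ATP5F1D (-0.48) and NDUFA11 (-0.43) were called lower, which the edgeR fit left above the threshold.

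A small number of genes known from other tissues were at or near 0. COX4I2, COX6A2, COX7B2, COX8C and ATP5MGL had 0 counts in all 6 libraries, where 3 counts, the limit that a count of 0 allows, correspond to 0.116 to 0.143 CPM. COX7A1, the muscle isoform of subunit VIIa, had 0 counts in each soft gel library and 0, 0 and 2 counts on the rigid dish, and COX6B2, a testis isoform, had 3.01, 2 and 1 counts in soft gel and 3.91, 0 and 2 on the rigid dish. In each case the general isoform carried the expression, with COX4I1 at 584 ± 40.2 TPM in soft gel and 569 ± 25.1 TPM on the rigid dish (mean ± SD, n = 3 each). TPM scales counts to gene length and is used here for levels between genes. COX7A2 stood at 388 ± 43.1 TPM in soft gel and 318 ± 31.7 TPM on the rigid dish, and COX6B1 at 954 ± 47.8 TPM in soft gel and 864 ± 85 TPM on the rigid dish. COX8A, with COX8C at 0, had 1328 ± 71.5 TPM in soft gel and 1287 ± 145 TPM on the rigid dish.

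Levels per length spanned a wide range within each complex. Averaged over the 6 libraries, ATP5ME of complex V was the highest at 1822 TPM, COX6A1 led complex IV at 1619 TPM, UQCRH led complex III at 728 TPM, NDUFA13 led complex I at 708 TPM and SDHB led complex II at 192 TPM. Among the assembly factors, NDUFAF8 was the highest at 266 TPM and NDUFAF6, at 18.1 TPM, was the lowest of all 88 genes. The median over tested genes was 563 TPM in complex IV, 369 TPM in complex V, 265 TPM in complex III, 198 TPM in complex I, 120 TPM in complex II and 26.8 TPM among the assembly factors. The leading genes of complexes I, II and V differed by less than the spread of the libraries. NDUFA13 stood at 732 ± 38.7 TPM in soft gel and 684 ± 134 TPM on the rigid dish, SDHB at 190 ± 8.52 TPM in soft gel and 193 ± 5.74 TPM on the rigid dish, and ATP5ME at 1806 ± 85.6 TPM in soft gel and 1837 ± 222 TPM on the rigid dish.

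**Figure D3:**
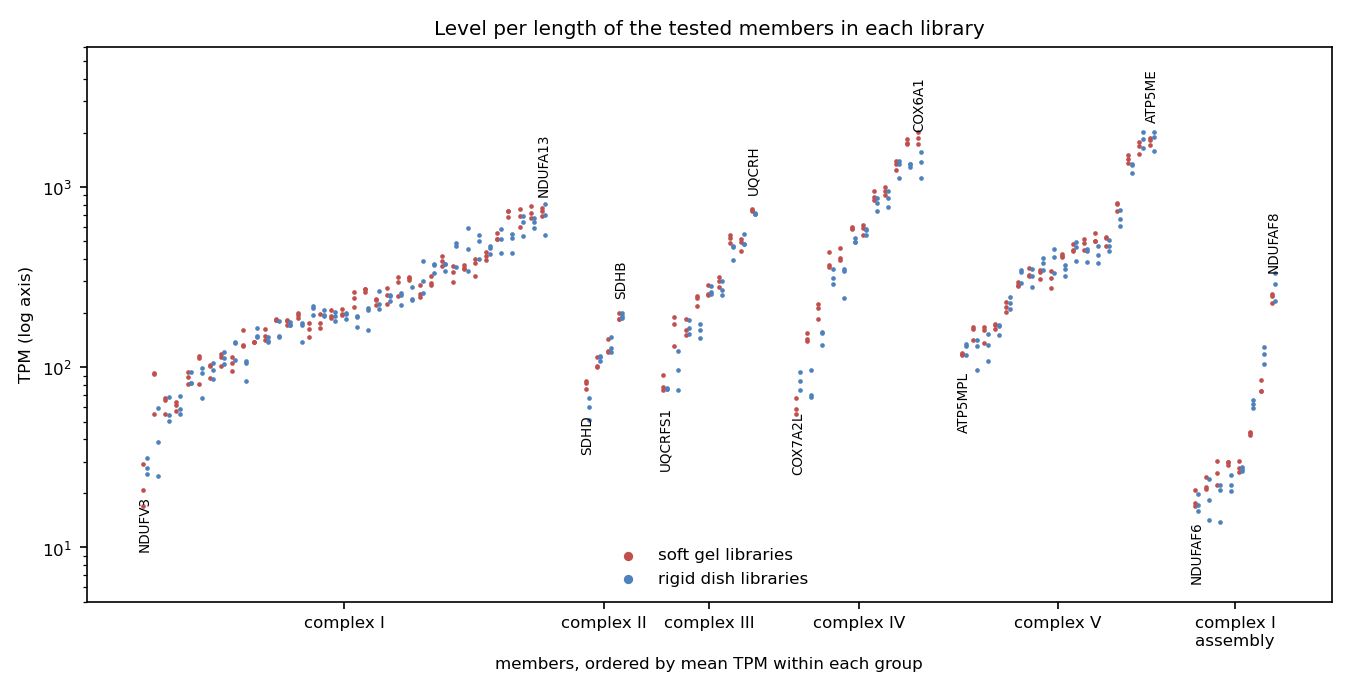
Deposited TPM (y axis, log scale) of the 88 tested genes in each soft gel and rigid dish library, ordered by mean TPM within each complex (x axis). Each point is a library, and the highest and lowest gene of each complex are named, from 1822 TPM for ATP5ME to 18.1 TPM for NDUFAF6.

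Summed over the nuclear genes of complex IV, TPM was 9176, 8858 and 9671 in soft gel, against 6940, 7876 and 8166 on the rigid dish, with no overlap. On the CPM scale the same sums were 2282, 2406 and 2713 in soft gel and 1789, 2199 and 2435 on the rigid dish, which overlap. The 12 tested genes of complex IV differed likewise by scale, with 7 of them higher in every soft gel library in TPM (background 21.3%) and 2 in CPM, and 1, COX7A2L, lower in every soft gel library in TPM (background 15.9%) and 0 in CPM. Summed TPM of complex III was 2917, 2919 and 3048 in soft gel, against 2719, 2697 and 2694 on the rigid dish, again apart in TPM and overlapping in CPM. The sums of complex I (9472 to 10118 TPM in soft gel, 8713 to 10314 TPM on the rigid dish), complex II (492 to 525 TPM in soft gel, 486 to 522 TPM on the rigid dish) and complex V (9646 to 10468 TPM in soft gel, 9230 to 10385 TPM on the rigid dish) overlapped. The deposited TPM reflect lengths that differ among libraries: the ratio of count to TPM of a gene varied by over 1.1-fold among libraries for 56 of the 88 genes, with a median of 1.13-fold and a maximum of 1.80-fold. The part of these lengths in the difference between scales was not tested.

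Mitochondrially encoded subunits, whose products join the same complexes, rose for 12 of 13 genes (92.3%, against 15.4% of all tested genes). Their median log2 fold change was 0.91, against 0.05 for all tested genes. Leaving out single libraries left 9 (without soft gel 2) to 12 of the 13 higher and 0 lower. The ratio of mitochondrially encoded to nuclear subunit TPM was higher in soft gel in complex I (8.88 ± 1.32 in soft gel, 4.62 ± 0.241 on the rigid dish), complex III (1.77 ± 0.194 in soft gel, 0.902 ± 0.0592 on the rigid dish), complex IV (6.94 ± 0.658 in soft gel, 4.93 ± 0.359 on the rigid dish) and complex V (2.71 ± 0.409 in soft gel, 1.49 ± 0.295 on the rigid dish; SD, n = 3 each). In complex V, MT-ATP8 averaged 119 CPM and MT-ATP6 3094 CPM in soft gel, but 17338 and 10149 TPM. For MT-ATP8, 1965 counts gave 7577 TPM in rigid dish 1 and 1724 counts gave 13094 TPM in rigid dish 2. The part of the lengths behind TPM in the ratios was not tested. In all 4 complexes every soft gel library had a higher ratio than every rigid dish library. With 3 libraries against 3, the smallest 2-sided p that an exact permutation test allows is 0.1, so these ratios are given without a test. In RNA of whole cultures, more mitochondrial genomes per cell and more RNA per mitochondrial genome cannot be told apart.

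**Figure D4:**
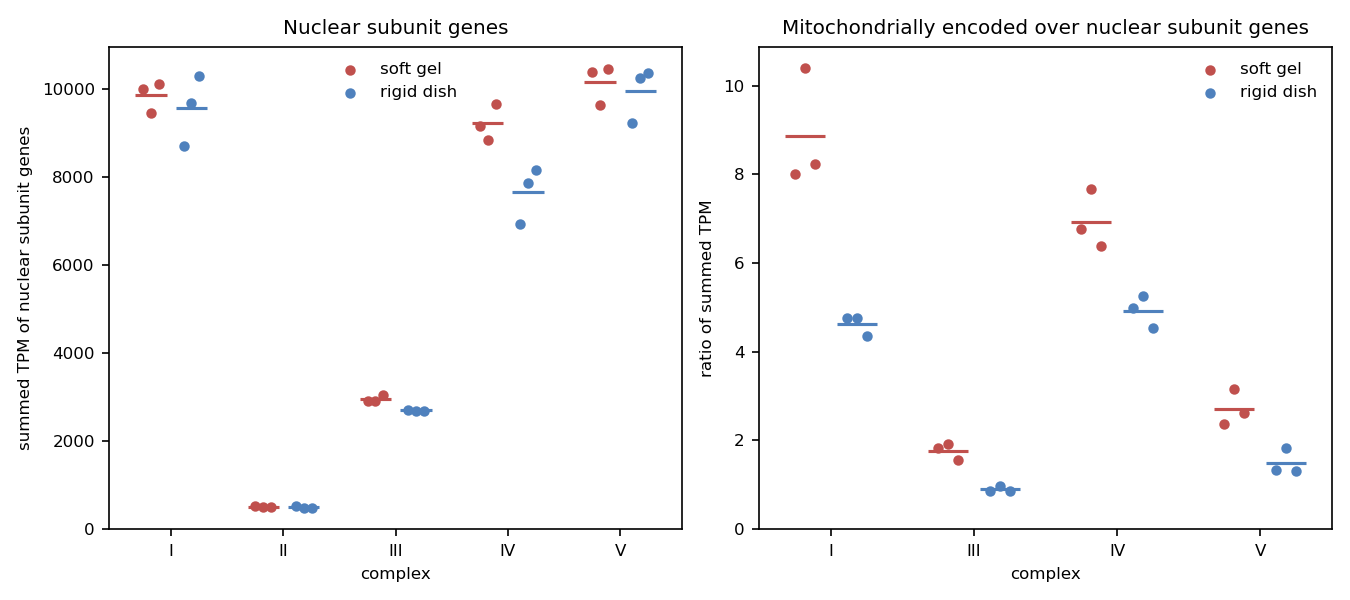
Left, summed TPM (y axis) of nuclear subunit genes of complexes I to V (x axis) in each library; right, the ratio of mitochondrially encoded to nuclear subunit TPM. Points are libraries, with soft gel left of rigid dish, and lines are means; the ratio in complex I averages 8.88 in soft gel and 4.62 on the rigid dish.

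Within each group, most of the 88 genes had their highest CPM in the same library. In rigid dish 1, 77 of the 88 genes (87.5%) had the lowest CPM of the 3 rigid dish libraries, against 41.4% of all tested genes, and the median gene lay -0.28 on the log2 scale from the mean of rigid dish 2 and 3, against 0.01 for all tested genes. Rigid dish 3 held the highest value for 71 genes (80.7%, all tested genes 37.4%), and soft gel 3 held the highest of the soft gel group for 66 of the 88 (39.3% of all tested genes). All 12 tested genes of complex IV and all 9 of complex III were lowest in rigid dish 1. NDUFA5 was among the exceptions, with 0.20 more on the log2 scale in rigid dish 1 than in the other rigid dish libraries. Soft gel 3 was the highest soft gel library for 1 of the 4 complex II genes and 3 of the 8 assembly factors. The median coefficient of variation of the 88 genes was 8.10% in soft gel and 12.6% on the rigid dish.

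Counts of called genes also changed with the libraries used. Without both rigid dish 1 and soft gel 3, 8 genes were higher and 33 lower, with a median log2 fold change of -0.18. This choice was made after seeing the data and from these genes' own values. Calls also rose among all tested genes, to 4288 higher and 4375 lower, from 2480 and 2123 in the main fit. The median over all tested genes of the main fit was 0.01 with this choice. COX7B (log2 fold change 0.71), NDUFA5 (1.08), UQCRB (0.54), UQCRC2 (0.36), NDUFAF4 (0.45), NDUFAF3 (-0.87), NDUFAF2 (-0.74) and NDUFS6 (-0.70) were called in the same direction there by edgeR, and NDUFA1 and COX7C were not called. NDUFB3 and SDHD also kept their calls in that fit.

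**Figure D5:**
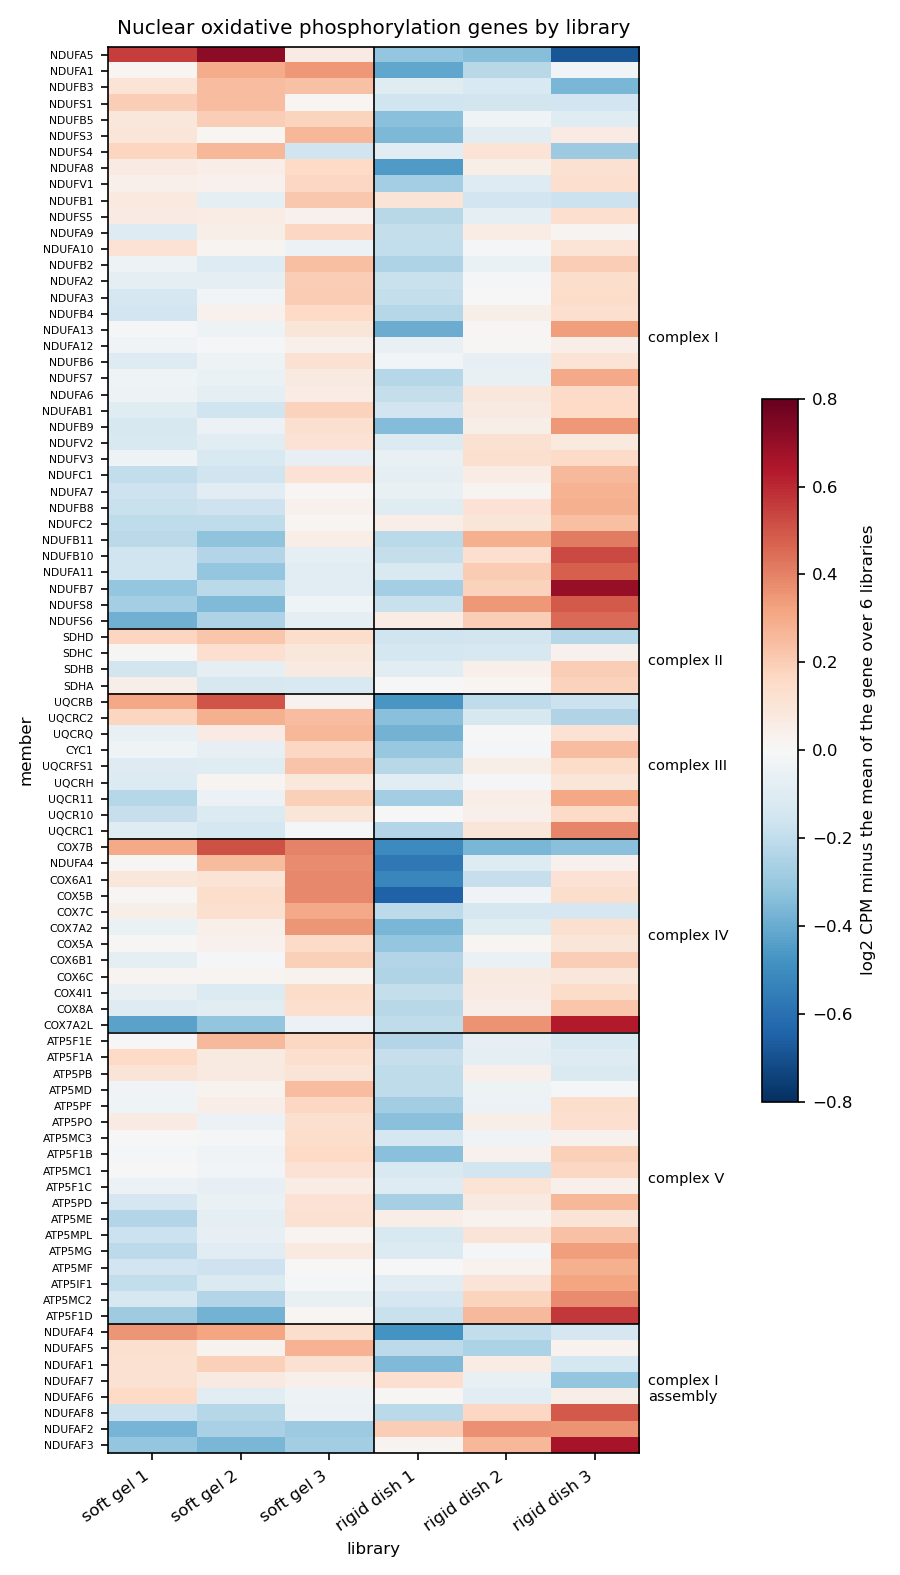
Log2 CPM of the tested genes (rows, grouped by complex, 1 gene not shown) minus the gene's mean over the 6 libraries (columns, soft gel 1 to 3 and then rigid dish 1 to 3). Rigid dish 1 is blue (low) for most genes and rigid dish 3 red (high), while genes such as COX7B are red in all soft gel and blue in all rigid dish libraries.

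Lists of related genes outside the symbol pattern were called in shares from below to above the background of 28.6%. Of 42 further assembly factors, 3 rose and 2 fell (11.9% called): TMEM70, which acts in complex V and complex I assembly, averaged 65.1 ± 3.09 CPM in soft gel and 42.2 ± 3.83 CPM on the rigid dish (mean ± SD, n = 3 each; log2 fold change 0.62, SE 0.115, edgeR adjusted p = 0.00555) and was called in all 19 alternative fits. The complex I factor TMEM126B (log2 fold change 0.55, edgeR adjusted p = 0.0169) and the complex IV factor COX18 (0.52, edgeR adjusted p = 0.0188) also rose, while COA7 (-0.42, edgeR adjusted p = 0.0259) and the complex III factor UQCC1 (-0.35, edgeR adjusted p = 0.0336) fell. TMEM126B and UQCC1 were not called without soft gel 1, soft gel 2, rigid dish 2 or rigid dish 3, nor COA7 without soft gel 1, soft gel 2 or rigid dish 2, nor COX18 without soft gel 2, soft gel 3 or rigid dish 2, and none of these 4 with TPM values. Without rigid dish 1, 4 of the 42 were higher and 6 lower, and without soft gel 3, 2 were higher and 7 lower. All tested genes gave 3239 higher and 2925 lower without rigid dish 1, and 2642 and 2695 without soft gel 3. Without both rigid dish 1 and soft gel 3, 4 of the 42 were higher and 16 lower, when all tested genes gave 4288 and 4375.

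Of 7 electron carriers and related genes, 3 (42.9%) rose and 0 fell by edgeR, and by DESeq2 also 0 fell. Cytochrome c, encoded by CYCS, had 505, 577 and 452 CPM in soft gel, against 388, 348 and 308 CPM on the rigid dish, without overlap (log2 fold change 0.55, SE 0.132, edgeR adjusted p = 0.0153). COQ10B, a ubiquinone-binding protein, and ETFDH, which passes electrons from fatty acid oxidation to ubiquinone, rose by 0.57 (SE 0.142, edgeR adjusted p = 0.0182) and 0.67 (SE 0.196, edgeR adjusted p = 0.0324) on the log2 scale. For ETFDH, soft gel 3 (21.7 CPM) lay just above rigid dish 2 (21.3 CPM). The calls of CYCS and ETFDH were lost with TPM values and without any library other than soft gel 3 and rigid dish 1, and the COQ10B call without soft gel 2 or rigid dish 3.

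Among 15 regulators of mitochondrial biogenesis, 1 rose and 2 fell (20% called). DESeq2 and DESeq2 size factors gave 1 higher and 5 lower, and the fits without soft gel 3 and without rigid dish 1 gave 2 higher with 5 lower and 3 higher with 4 lower. PPARGC1A, the coactivator PGC-1alpha, had 64.8, 72.5 and 54.0 CPM in soft gel, against 28.7, 34.7 and 29.8 CPM on the rigid dish. Every soft gel library was far above every rigid dish library, the log2 fold change was 1.04 (SE 0.142, edgeR adjusted p = 0.00175), and all 19 alternative fits called it. TFB1M, a methyltransferase of mitochondrial ribosomal RNA, averaged 15.8 ± 0.63 CPM in soft gel and 26.2 ± 1.59 CPM on the rigid dish (mean ± SD, n = 3 each; log2 fold change -0.73, SE 0.125, edgeR adjusted p = 0.00426). GABPB1, a subunit of the GABP transcription factor, averaged 15.9 ± 2.05 CPM in soft gel and 21.7 ± 1.14 CPM on the rigid dish (log2 fold change -0.45, SE 0.143, edgeR adjusted p = 0.0431), a call lost whenever any library was left out. The calls of TFB1M and GABPB1 were both lost with TPM values.

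Of 17 citric acid cycle genes, 6 rose and 2 fell (47.1% called). Among the risen genes, SUCLA2 of succinyl-CoA synthetase (log2 fold change 0.63, SE 0.187), IDH3A of the NAD-linked isocitrate dehydrogenase (0.55, SE 0.0994), DLD (0.49, SE 0.153), OGDH (0.38, SE 0.118) and the citrate synthase gene CS (0.31, SE 0.102) had edgeR adjusted p-values of 0.00514 for IDH3A to 0.0487 for CS. The NADP-linked enzyme IDH2 averaged 29.3 ± 2.87 CPM in soft gel and 44.2 ± 2.22 CPM on the rigid dish (log2 fold change -0.59, SE 0.121, edgeR adjusted p = 0.0084), and fumarase (FH) averaged 141 ± 4.62 CPM in soft gel and 179 ± 7.11 CPM on the rigid dish (log2 fold change -0.34, SE 0.0985, edgeR adjusted p = 0.0309; SD, n = 3 each). IDH3A was called in all 19 alternative fits, and leaving out single libraries left 1 to 4 risen and 1 to 5 fallen genes, with more fallen (5) than risen (4) without rigid dish 1. The SUCLA2 groups overlapped, with soft gel 3 (36.6 CPM) below rigid dish 1 (37.7 CPM). SUCLA2 and DLD were not called without soft gel 1, soft gel 2, rigid dish 2 or rigid dish 3, nor FH without soft gel 1, soft gel 2 or rigid dish 2. With TPM values SUCLA2, DLD, IDH2 and FH were not called, which left 4 of the 17 genes higher and 0 lower. OGDH and CS were not called without any of the 6 libraries, nor with DESeq2 size factors, which left 3 of the 17 genes higher and 2 lower.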

How the data were processed

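RNA of 3 soft gel and 3 rigid dish libraries was compared. The authors deposited estimated counts per gene, not normalized and partly with decimals. The authors also deposited TPM values per library, scaled to gene length. Their own comparison was deposited too, as a linear fold or ratio, its log2 value and a p-value per gene, under a name that refers to DESeq2. HISAT2, HTSeq and hg38 appear in the submitters' processing notes, with neither versions nor roles; the program that gave decimals is not given in these sources. The labels state no strand setting. They do not tell if replicates were separate cultures, so the p-values reflect only how these libraries spread, which may be technical. Reads of overlapping or antisense genes cannot be told apart.

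After rounding to whole numbers, filterByExpr (minimum count 10) kept 16098 genes, which were scaled by TMM and tested together with edgeR 4.0.16 (quasi-likelihood, R 4.3.3) with Benjamini-Hochberg adjustment over all. SE was taken from the test statistic. The pipeline was tested on simulated data. Libraries held 20911363 to 25901499 counts; limits from counts of 0 cover counting error only. Pseudogene counts summed to at most 0.0672% of the members' counts per library. Gene positions are from GENCODE 29, which held 99.5% of the identifiers, and promoters from RefSeq (GRCh38.p14).

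Genes named are those with an adjusted p below 0.05, the highest and most changed gene of each complex, isoform genes, and up to 2 called genes per direction of each further list; genes named beyond these were chosen after their values were seen. A few individual genes are counted but not reported by name. The members and lists were chosen with earlier results of these data known. Alternatives were other scalings, other filters, a replicate block, a length correction, DESeq2 1.42.0, limma 3.58.1 on counts (voom) and on TPM with pseudocounts of 1 and 0.1, leaving out mitochondrial genes, and leaving out libraries.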

Additional observations from a re-analysis of the deposited data

How the results depend on the processing

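Of 19 alternative fits, 18 were planned and the fit without both rigid dish 1 and soft gel 3 was chosen after seeing the data. No log2 fold change of a named called gene reversed in these fits. Members higher and lower numbered 5 and 10 without a low-count filter, 15 and 9 with a replicate block, 19 and 7 with a replicate block and length correction, 5 and 7 with DESeq2, and 8 and 33 without both rigid dish 1 and soft gel 3 (median log2 fold change -0.18). All tested genes higher and lower numbered 2743 and 2814 without a low-count filter, 3499 and 2943 with a replicate block, and 2302 and 2712 with DESeq2. With a replicate block and length correction they numbered 3477 and 3075. They numbered 1345 and 968 with limma on log2(TPM + 1), 1327 and 960 on log2(TPM + 0.1), and 4288 and 4375 without both libraries. Leaving out each library gave 2 to 7 members higher, 0 to 13 lower, a median of -0.10 to 0.07, and 1006 to 3239 genes higher and 797 to 2925 lower overall. The cause of these shifts was not tested. The other settings left 6 to 13 members higher and 3 to 4 lower. Length correction put the members' median at 0.11. The labels do not say whether same-numbered libraries belong together, and the main test treated them as unpaired. In their deviations from the group means, same-numbered libraries correlated at 0.22, 0.0091 and 0.31. Libraries of different numbers correlated at -0.295 to 0.14, and soft gel 2 correlated best with rigid dish 1 (0.14). These values do not settle whether the libraries were paired. With 20911363 to 25901499 counts a library and 3 libraries a group, the members' median SE was 0.135 on the log2 scale, which limits what the test could call.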
